A study of Mus musculus with 16 samples.

Results

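The 10 genes described here encode subunits of the clathrin adaptor complexes AP-1 and AP-2. They were taken by symbol from the 43472 genes counted in each library: Ap1b1, Ap1g1, Ap1m1, Ap1s1 and Ap1s2 for AP-1, and Ap2a1, Ap2a2, Ap2b1, Ap2m1 and Ap2s1 for AP-2. The study set brain RNA of 2 mouse models against their own controls, with 16 libraries in 4 groups of 4. The first group was wild-type (WT) brain kept as the control for the Prepl knockout, and the second was Prepl knockout brain. A separate WT group was the control for the fourth, brain of PWS-IC deleted mice. PWS-IC is an imprinting centre: genes expressed from the paternal chromosome in the Prader-Willi region depend on it. No agent was given to any group as far as the labels say. The sources used here do not give age, strain, brain region or the make of each allele. They do not say whether replicates came from separate mice. Every group but the Prepl knockout held libraries of both sexes, so those groups drew on more than a single mouse. Whether each library was a separate mouse is not known. A p-value here therefore reflects the spread among these libraries, which may be technical in part.

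Clathrin adaptors are complexes of 2 large subunits, 1 medium subunit and 1 small subunit that link cargo proteins and membrane lipids to the clathrin coat. AP-1 works at the trans-Golgi network and endosomes, where the GTP-bound form of an ARF protein recruits it. AP-2 works at the plasma membrane, where it binds phosphoinositides and gathers receptors for endocytosis, which in neurons includes the retrieval of synaptic vesicle proteins. The medium subunit (mu) reads tyrosine-based sorting signals, and the small subunit (sigma) together with a large subunit reads dileucine signals. The product of Prepl, prolyl endopeptidase-like, is a hydrolase that binds AP-1 and is known to take part in AP-1 trafficking. Each mutant set against its controls therefore shows whether adaptor mRNA differed where expression of an AP-1 partner, or of Prader-Willi genes, was reduced.

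Promoter sequences are shown for the small subunit genes Ap2s1 and Ap1s1, because the AP-2 gene was called in the PWS-IC deletion and its AP-1 counterpart was not. Both come from RefSeq for GRCm38.p6 and cover 216 bases upstream of the annotated gene, 5′ to 3′ on the gene's strand. The Ap2s1 window reaches the gene start, while the Ap1s1 window stops at 137046143, a few bases short of the gene's edge at 137046135. Of the 10 members 9 had a promoter entry. The Ap2s1 window lies at chr7:16738194-16738409 (plus strand) and the Ap1s1 window at chr5:137046143-137046358 (minus strand). Capitals mark the motif matches named after them.
Ap2s1: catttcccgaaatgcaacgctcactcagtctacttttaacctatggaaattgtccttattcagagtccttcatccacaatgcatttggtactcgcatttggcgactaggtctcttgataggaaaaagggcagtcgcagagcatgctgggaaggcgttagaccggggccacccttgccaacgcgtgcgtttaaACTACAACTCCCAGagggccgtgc
Ap1s1: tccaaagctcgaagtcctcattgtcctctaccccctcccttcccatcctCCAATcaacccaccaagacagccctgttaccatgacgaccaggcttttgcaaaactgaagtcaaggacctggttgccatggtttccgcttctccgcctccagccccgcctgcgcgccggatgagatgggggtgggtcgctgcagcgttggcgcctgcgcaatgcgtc

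The capitals in Ap2s1 are 1 match to ACTACAACTCCCAG, the letters of an element known to be bound by ZNF143 and THAP11. Those letters were copied from this window after the sequence was seen, so the match was fixed in advance. On either strand 0.200% of 27025 promoter windows of the same length hold them. This share is for a long exact string and cannot be compared with those of the shorter boxes below. The capitals in Ap1s1 are 1 match to the CCAAT box, which 31.0% of the windows hold. Neither window held a GC box (GGGCGG, 27.9% of windows), the CACGTG letters of the E-box (4.92%) or a TATAAA box (10.2%). Ap2s1 had 50.5% G and C in this window, and Ap1s1 had 60.2%. A match describes the letters and does not show that a factor binds there.

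Reads in genes numbered 3477624 to 5852716 per library. The targeted genes followed the labels: Prepl averaged 34.8 ± 1.35 CPM (reads of a gene scaled by the library's total in genes; SD, n = 4) in its WT group and 1.64 ± 0.453 in the knockout, while Ndn of the Prader-Willi region averaged 556 CPM in its WT group and 4.30 in the deleted group. Snrpn of that region averaged 344 CPM in the PWS-IC WT group and still held 24.2 to 36.0 CPM in the deleted libraries. Xist and Y-linked genes showed 3 females and 1 male (replicate 4) in the Prepl WT group, 4 males in the knockout, and 2 males and 2 females in each PWS-IC group. The share of tabled reads that aligned outside genes was 15.98% to 19.6% in the 8 libraries of the Prepl comparison. It was 11.4% to 13.7% in the PWS-IC WT group and 17.7% to 20.1% in the PWS-IC deleted group. The brain label was met by neuronal markers in all 16 libraries, with Snap25, a synaptic SNARE protein, at 178 to 246 CPM and Map2, a dendritic microtubule protein, at 1426 to 1658 CPM. The myelin genes Mog and Mobp were too low to be tested.

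All 10 members had 121 to 1786 reads each in each library, for which counting alone gives an error of 2.37% to 9.09% of the value. The libraries read the 3′ end of each transcript, so CPM compares numbers of transcript ends and needs no scaling by length. Ap2b1, the beta subunit of AP-2, was the most abundant, with a mean of 291 CPM over the 16 libraries. Ap1s2, a sigma subunit of AP-1 encoded on the X chromosome, came next at 194 CPM. Below them stood Ap2s1 (134 CPM), Ap1g1 (127 CPM), Ap2a2 (102 CPM), Ap1b1 (82.6 CPM), Ap1m1 (79.8 CPM), Ap1s1 (73.4 CPM), Ap2m1 (63.5 CPM) and Ap2a1 (30.5 CPM). Only the steps at the ends of this order had ranges that did not overlap over the 16 libraries, from Ap2b1 to Ap1s2 and from Ap2m1 to Ap2a1. The order of Ap1b1 and Ap1m1, and that of Ap1m1 and Ap1s1, each held in 9 of 16 libraries. Within pairs of alternative subunits, Ap1s2 exceeded Ap1s1 and Ap2a2 exceeded Ap2a1 in every group.

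Some transcripts share sequence with other genes. Whether the counting used strand is not given in the sources used here. The Ap2a1 transcript shares 252 of its last 500 bases with Fuz on the opposite strand, and Fuz itself held 533 reads over the 16 libraries. If strand was not used, reads of the shared stretch may have been set aside as ambiguous, which would lower both counts, or mixed between the genes. Ambiguous reads were 0.390% to 0.479% of tabled reads. The end of Ap2m1 is 99.4% identical over 500 bases to the gene model Gm13509, which held 21 reads in all. It is also 97.2% and 96.6% identical over 498 bases to AC111023.1 and Gm18646. Reads that fit several copies would not align uniquely and would not be counted, so the Ap2m1 count may be too low.

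**Figure D1:**
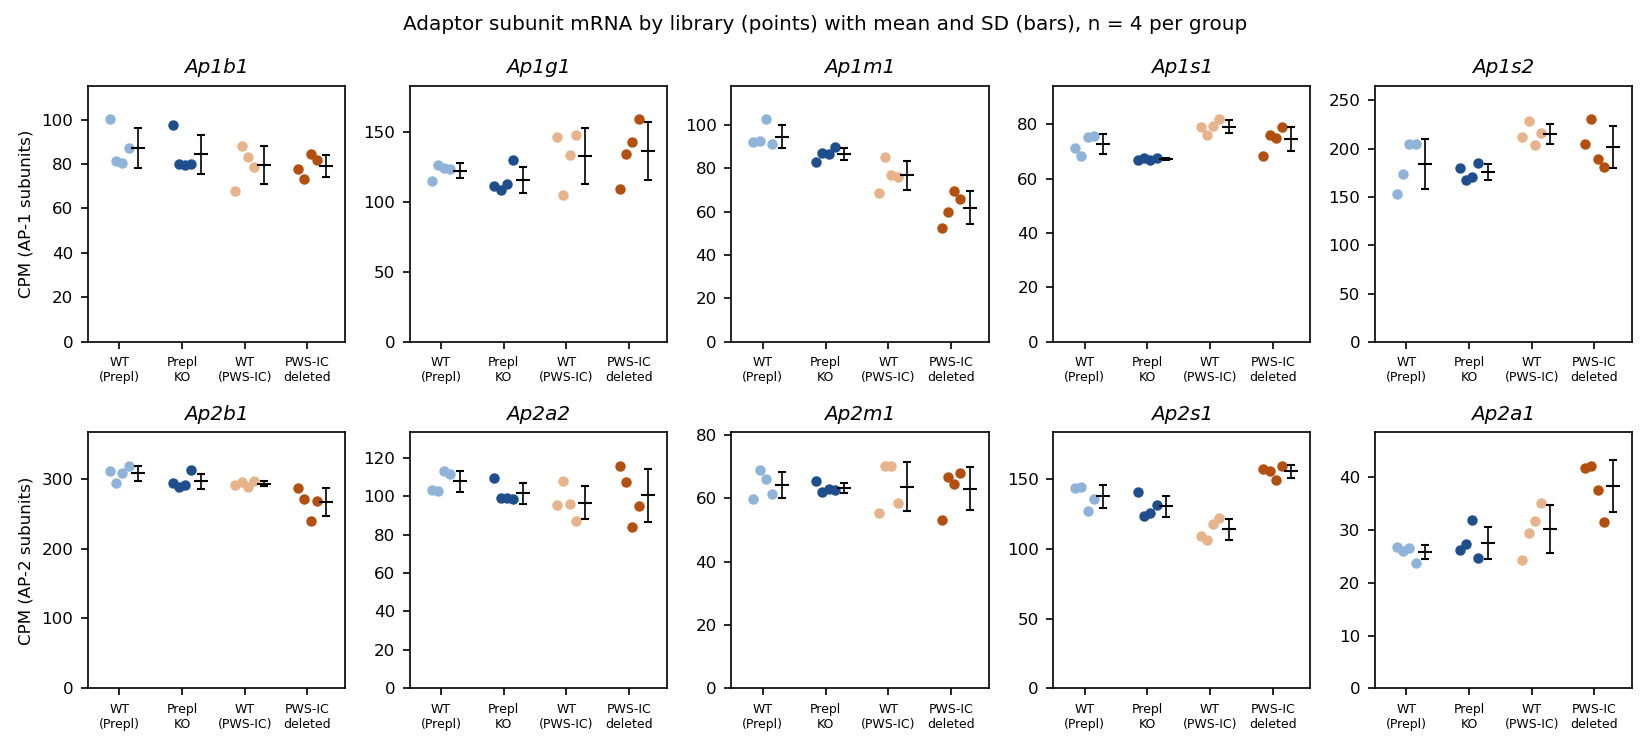
CPM of each subunit (vertical axes from 0) by group, with a point for each library and bars for mean and SD over 4 libraries. Ap2s1 lies at 149 to 159 CPM in the PWS-IC deleted libraries and at 106 to 122 CPM in their WT libraries.

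In the Prepl knockout no adaptor subunit mRNA was called. Of the 10 members, 0 passed at an adjusted p of 0.05 (edgeR, quasi-likelihood test, Benjamini-Hochberg adjustment over 13722 genes), where 0.262% of all genes tested did. None had an unadjusted p under 0.05 either, against 9.43% of all genes, and DESeq2 and limma voom also called 0. The median log2 fold change of the members was -0.04 and 2 of 10 were above 0, beside a median of 0.000305 over all genes.

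Among AP-1 subunits, the medium chain Ap1m1 (chromosome 8, 72240018 to 72257385) stood at 91.9, 92.5, 102.4 and 91.0 CPM in the WT libraries and at 82.6, 86.9, 86.5 and 89.7 CPM in the knockouts. Every knockout library was below every WT library. The log2 fold change was -0.09 ± 0.0755 (SE; edgeR, Benjamini-Hochberg adjusted p = 0.752), with a 95% interval from -15.8% to 4.44%. The small subunit Ap1s1 (chromosome 5, 137034993 to 137046135) showed the same lack of overlap, at 71.4, 68.4, 75.5 and 75.8 CPM in WT and 67.0, 67.5, 66.7 and 67.7 CPM in knockout libraries. Its log2 fold change was -0.08 ± 0.0794 (adjusted p = 0.813 by the same edgeR test; 95% interval -15.5% to 6.07%). These 2 members of 10 were the ones without overlap, both lower in the knockout, and 5.69% of all genes tested had groups that did not overlap (4.09% lower in the knockout).

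The other AP-1 subunits overlapped between the groups. Ap1g1, the gamma subunit that binds accessory proteins, averaged 122 ± 5.27 CPM in WT and 115 ± 9.50 CPM in knockout libraries (log2 fold change -0.05 ± 0.0738). Ap1b1, the beta subunit that binds clathrin, averaged 87.3 ± 9.10 and 84.3 ± 8.83 CPM (-0.01 ± 0.0889). The sigma subunit Ap1s2 (chromosome X, 163909017 to 163933666) averaged 184 ± 25.4 and 176 ± 8.02 CPM (-0.03 ± 0.0823).

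Among AP-2 subunits, the widest estimate was that of Ap2a1, an alpha subunit. It stood at 26.7, 26.0, 26.6 and 23.8 CPM in WT and at 26.3, 27.4, 31.9 and 24.6 CPM in knockout libraries (log2 fold change 0.13 ± 0.119, 95% interval -7.40% to 30.1%). The groups overlapped. Ap2b1 had the narrowest interval, -10.01% to 8.17%, at 308 ± 10.4 CPM in WT and 296 ± 10.6 CPM in knockout libraries. The medium chain Ap2m1 averaged 64.2 and 63.2 CPM (95% interval -10.3% to 13.5%), and the small subunit Ap2s1 averaged 137.8 ± 8.20 and 130.4 ± 7.63 CPM (-12.4% to 7.49%). Ap2a2, the other alpha subunit, had a log2 fold change of -0.05 ± 0.0737.

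Sex was not balanced in the Prepl comparison, and Ap1s2 is X-linked. With sex as a term the fit leaned on the single male WT library. It gave log2 fold changes of -0.19 for Ap1s2, -0.14 for Ap1s1, 0.24 for Ap2a1 and -0.04 for Ap1m1, and 0 of 10 members were called. Male libraries of both genotypes can be set side by side, though only 1 WT library was male. It held 91.0 CPM of Ap1m1 and 75.8 CPM of Ap1s1, above all 4 male knockouts for both genes. It was also above all 4 for Ap1s2, Ap2a2 and Ap2b1, and below all 4 for Ap2a1 and Ap2m1. For Ap1b1, Ap1g1 and Ap2s1 it lay among them. How often this held over all genes was not counted. Of the cell type markers, 1 blood marker was called lower in the knockout, with a summed blood level of 660 to 1145 CPM in WT and 628 to 833 CPM in knockout libraries. The summed level of the 8 neuronal markers was 3852 to 4048 CPM in WT and 3617 to 3788 CPM in knockout libraries, without overlap and lower in the knockout, as for Ap1m1 and Ap1s1. None of the 8 was called. Rbfox3, a neuronal marker chosen here after its values were seen, stood at 222 to 227 CPM in WT and 182 to 204 CPM in knockout libraries. It was the only 1 of the 8 without overlap, and 2 of the 8 had a log2 fold change above 0. Snap25 (209 to 246 and 178 to 226 CPM) and Map2 (1494 to 1585 and 1426 to 1510 CPM) overlapped between the groups. The part of neurons and blood in the subunit levels was not tested.

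In the PWS-IC deleted brain 1 of the 10 members was called. Ap2s1, the sigma subunit of AP-2, rose from 114 ± 7.53 CPM in its WT group to 155 ± 4.41 CPM (SD, n = 4), or 1.37-fold. Across all genes 4.52% were called in this comparison (2.96% higher, 1.55% lower), by edgeR with Benjamini-Hochberg adjustment over 13636 genes. At an unadjusted p under 0.05 there were 3 members of 10 (Ap2s1, Ap1m1 and Ap2a1), against 18.2% of all genes. The median log2 fold change of the members was -0.00152 with 5 of 10 above 0, beside a median of -0.0140 over all genes.

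Ap2s1 (ENSMUSG00000008036.11, chromosome 7, 16738410 to 16749294) stood at 109.0, 106.2, 118.1 and 122.2 CPM in the WT libraries and at 157.4, 155.9, 149.2 and 159.4 CPM in the deleted ones. All 4 deleted libraries were above all 4 WT libraries. Its log2 fold change was 0.46 ± 0.0813 (SE; edgeR, Benjamini-Hochberg adjusted p = 0.00249), with a 95% interval from 22.1% to 54.5% higher. Leaving out each of the 8 libraries in turn kept the call, at 0.43 to 0.49. The gene lies on the same chromosome as the Prader-Willi genes, 43.2 Mb from the interval between Snrpn and Ndn. Ap2a1, at 15.1 Mb, and Ap2a2, at 79.2 Mb, are on that chromosome too and were not called.

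The groups also differed in reads outside genes. The deleted libraries had 17.7% to 20.1% of tabled reads outside genes and the WT libraries 11.4% to 13.7%, so this share and the deletion cannot be told apart between the groups. In order of share, the WT libraries (11.4%, 11.7%, 12.3% and 13.7%) held 122.2, 106.2, 118.1 and 109.0 CPM of Ap2s1. The deleted libraries (17.7%, 18.7%, 19.9% and 20.1%) held 155.9, 159.4, 157.4 and 149.2 CPM. The 8 libraries of the Prepl comparison had 15.98% to 19.6% outside genes and held 124 to 145 CPM of Ap2s1, below the 149 to 159 CPM of the deleted libraries. Those 8 libraries come from other mice and were not counted as a test. The part of this share in the Ap2s1 level was not tested.

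**Figure D2:**
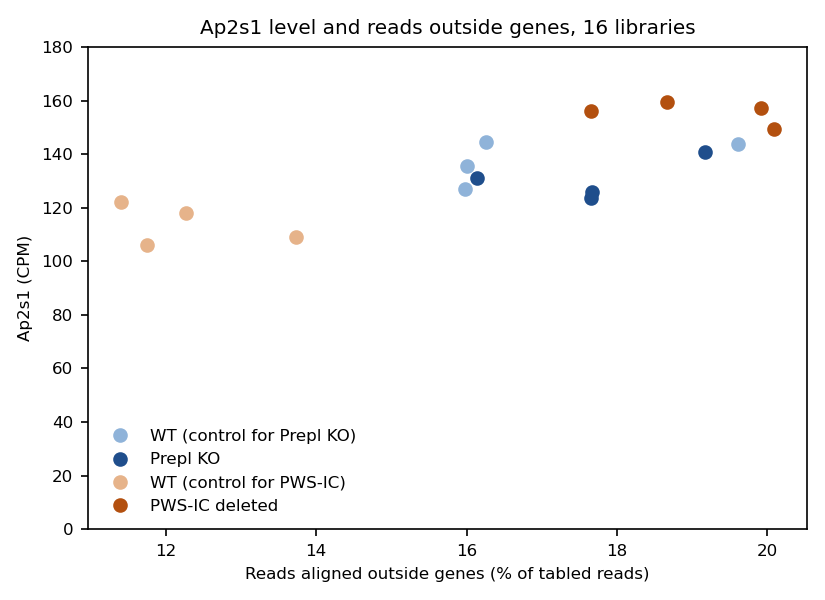
Ap2s1 level (CPM, vertical axis from 0) against the share of tabled reads that aligned outside genes (%), with a point for each of 16 libraries coloured by group. The 4 PWS-IC deleted libraries lie at 149 to 159 CPM and the 8 libraries of the Prepl comparison at 124 to 145 CPM.

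Markers of other cell types also moved in the PWS-IC comparison. Called lower were 2 of 5 choroid plexus markers, 5 of 6 markers of meningeal fibroblasts, 4 of 5 blood markers, 1 of 4 oligodendrocyte markers and 1 of 5 microglial markers, by edgeR's test across all genes. The summed level of the blood markers was 1796 to 3970 CPM in WT and 1203 to 1629 CPM in deleted libraries, that of the meningeal markers 380 to 634 and 293 to 316 CPM, and that of the choroid plexus markers 1332 to 2113 and 353 to 1646 CPM. None of the 8 neuronal markers was called, and their summed level was 3788.5 to 3998 CPM in WT and 3917 to 4029 CPM in deleted libraries. None of the 6 astrocyte markers was called, yet 2 were lower at an unadjusted p under 0.05, and their summed level did not overlap, at 731 to 764 CPM in WT and 660 to 708 CPM in deleted libraries. No marker of any list was at 0 in all libraries. The part of these cell types in the subunit levels was not tested, and in bulk RNA fewer cells of a type and less RNA per cell cannot be told apart.

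Ap1m1, the medium chain of AP-1, stood at 68.7, 85.0, 77.0 and 75.8 CPM in the PWS-IC WT libraries and at 52.2, 59.96, 69.3 and 65.7 CPM in the deleted ones. The highest deleted library overlapped the lowest WT library. The log2 fold change was -0.30 ± 0.105 (SE; edgeR, Benjamini-Hochberg adjusted p = 0.107), with a 95% interval from -30.4% to -5.80%. It missed the threshold here, and passed it with sex as a term (-0.31, adjusted p = 0.0495) and in a single edgeR fit of all 16 libraries (-0.30, adjusted p = 0.0387). In 7 of 9 other settings Ap1m1 was not called. Nor was it called in the 8 edgeR fits that left out each library in turn (adjusted p from 0.0902 to 0.294).

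Ap2a1, an alpha subunit of AP-2, stood at 24.3, 29.5, 31.7 and 35.2 CPM in WT and at 41.9, 42.2, 37.7 and 31.6 CPM in deleted libraries, with overlap. The log2 fold change was 0.35 ± 0.138 (edgeR, Benjamini-Hochberg adjusted p = 0.170), with a 95% interval from 4.42% to 55.7%. Ap2b1 stood at 290.6, 294.6, 288.5 and 296.8 CPM in WT and at 286.8, 271.5, 239.2 and 268.3 CPM in deleted libraries. Every deleted library was below every WT library, yet the log2 fold change was -0.13 ± 0.0824 (adjusted p = 0.446 by the same edgeR test). Ap2s1 and Ap2b1 were the 2 members of 10 without overlap, 1 in each direction, where 11.8% of all genes tested had none (6.7% higher, 5.06% lower in the deletion).

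The remaining members overlapped between the groups. Their log2 fold changes were 0.00 ± 0.0975 for Ap1b1, 0.04 ± 0.112 for Ap1g1, -0.08 ± 0.0880 for Ap1s1, -0.09 ± 0.0924 for Ap1s2, 0.07 ± 0.108 for Ap2a2 and -0.00 ± 0.111 for Ap2m1. Ap1g1 spread widely within groups, at 104.7 to 147.3 CPM in WT and 109.2 to 158.7 CPM in deleted libraries. The medium chain of AP-2, Ap2m1, averaged 63.6 ± 7.76 CPM in WT and 63.1 ± 6.78 CPM in deleted libraries.

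**Figure D3:**
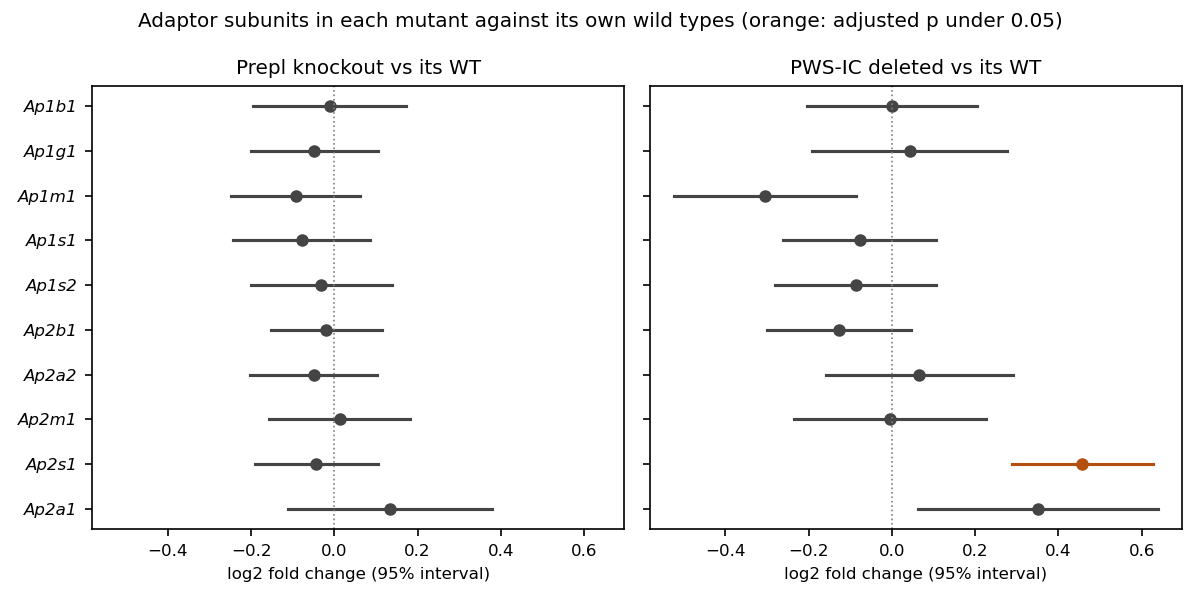
Log2 fold change of each subunit (points) with its 95% interval (lines) in the Prepl knockout (left) and the PWS-IC deletion (right), each against its own 4 WT libraries. Ap2s1 in the PWS-IC deletion, at 0.46, is the only point coloured as called.

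An effect here is the log2 difference of a mutant group from its own WT group, whatever its cause. The difference between the effects of the 2 mutants was tested in 1 fit of all 16 libraries, as the Prepl effect minus the PWS-IC effect. It passed the threshold for 1 of the 10 members, against 0.778% of all 14392 genes tested. For Ap2s1 the difference was -0.51 ± 0.107 on the log2 scale (edgeR, Benjamini-Hochberg adjusted p = 0.0131; 95% interval -0.72 to -0.29). The log2 fold change of Ap2s1 was thus higher in the PWS-IC deletion than in the Prepl knockout. For Ap1m1 the difference was 0.21 ± 0.126 (adjusted p = 0.547 by the same edgeR test), with an interval from -0.05 to 0.47. For Ap2a1 it was -0.22 ± 0.184.

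The control groups themselves differed, which bears on any level set across the models. Between the WT group of the PWS-IC comparison and that of the Prepl comparison, 24.4% of all genes were called (12.3% higher and 12.1% lower in the PWS-IC WT group) and 3 of the 10 members were. Ap1s2 was higher in the PWS-IC WT group by 0.27 ± 0.0927 on the log2 scale (edgeR, Benjamini-Hochberg adjusted p = 0.0303). Ap1m1 was lower there, at -0.25 ± 0.0876 (adjusted p = 0.0325 by edgeR), and so was Ap2s1, at -0.23 ± 0.0753 (adjusted p = 0.0270 by edgeR). The Ap2s1 level of the deleted libraries, 155 ± 4.41 CPM, therefore stood further from its own WT group than from the Prepl WT group at 137.8 ± 8.20 CPM. Leaving out single libraries ended each of these 3 WT calls in some fits, with adjusted p up to 0.119 for Ap1m1, 0.139 for Ap1s2 and 0.0827 for Ap2s1. For Ap1m1 these were the fits without Prepl WT replicate 3 or PWS-IC WT replicate 1, 3 or 4. For Ap2s1 they were those without replicate 1 or 2 of either WT group, and for Ap1s2 those and the fit without PWS-IC WT replicate 4. Sex was not a term in this fit, and the labels give no batch for these groups.

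The balance between subunits is given as shares of reads, as a description without a test. Ap2s1 made up 19.0%, 17.5%, 19.5% and 20.4% of the reads of the 5 AP-2 members in the PWS-IC WT libraries, and 24.0%, 24.2%, 26.0% and 25.6% in the deleted ones. It made up 21.4% ± 1.35 in the Prepl WT group and 21.1% ± 0.734 in the Prepl knockout. AP-1 and AP-2 each use their own medium chain, and Ap2m1 may be counted too low because its transcript end has near copies. Ap1m1 took 55.4%, 54.8%, 52.3% and 56.4% of the reads of Ap1m1 and Ap2m1 in the PWS-IC WT libraries, and 49.5%, 47.3%, 51.8% and 49.2% in the deleted ones. This share of both medium chains was lower in each deleted library than in each WT library. In the Prepl comparison it was 59.6% ± 1.60 in WT and 57.7% ± 1.37 in knockout libraries. Among reads of the 5 AP-1 members, Ap1m1 took 11.975% to 14.597% in the PWS-IC WT libraries. It took 10.193% to 12.359% in the deleted ones, so the groups overlapped for this share. How often such shares did not overlap for other genes was not counted.

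Shares within pairs of alternative subunits overlapped between the PWS-IC groups. Ap1s1 took 26.9% ± 1.35 of the reads of the Ap1s1 and Ap1s2 pair in the PWS-IC WT group and 27.1% ± 2.68 in the deleted group. Ap2a1 took 23.9% ± 3.80 of the reads of the alpha pair in the PWS-IC WT group and 27.7% ± 2.57 in the deleted group. Summed over its 5 members, AP-1 stood at 583 ± 11.9 CPM in the PWS-IC WT group and 553 ± 27.8 CPM in the deleted group, and AP-2 at 597 ± 15.3 and 624 ± 35.5 CPM. In the Prepl comparison the AP-1 sum was 561 ± 28.4 CPM in WT and 529 ± 19.3 CPM in knockout libraries, and the AP-2 sum was 643 ± 6.22 and 619 ± 16.2 CPM.

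**Figure D4:**
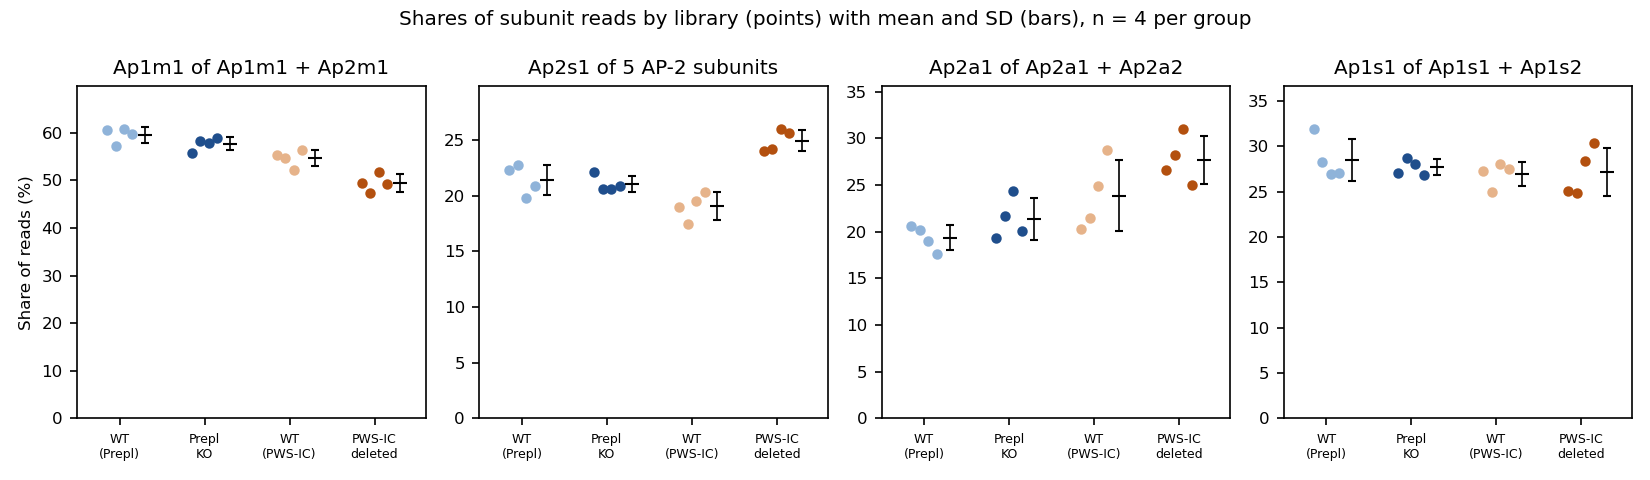
Share of reads (%, vertical axes from 0) taken by Ap1m1 of both medium chains, Ap2s1 of the 5 AP-2 subunits, Ap2a1 of both alpha subunits and Ap1s1 of the AP-1 sigma pair, with a point for each library and bars for mean and SD. The Ap2s1 share is 24.0% to 26.0% in the PWS-IC deleted libraries and 17.5% to 20.4% in their WT libraries.

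The other 92 genes of the clathrin and adaptor lists were read beside the members. In the Prepl knockout 0 of 88 tested were called by edgeR, and 9 had an unadjusted p under 0.05 (3 higher, 6 lower), beside the 0.262% and 9.43% of all genes. DESeq2 and limma voom each called 0 of them. Synrg, which encodes the AP-1 partner synergin gamma, had the smallest p of the AP-1 partners, at 0.21 ± 0.0692 on the log2 scale (edgeR, Benjamini-Hochberg adjusted p = 0.279). Its knockout libraries, at 153.7, 138.7, 138.2 and 155.5 CPM, all lay above its WT libraries, at 131.1, 129.5, 132.9 and 125.3 CPM. Among endocytic adaptors, Epn1 (epsin, 0.20 ± 0.0730) and Snap91 (the neuronal clathrin assembly protein AP180, -0.18 ± 0.0723) had the smallest p. The clathrin light chains Clta and Cltb had log2 fold changes of -0.03 ± 0.0673 and -0.10 ± 0.0735.

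In the PWS-IC deletion 3 of 87 tested genes of these lists were called, 1 higher and 2 lower, which is near the 4.52% of all genes. Aagab, which encodes the assembly chaperone of the AP-1 gamma and AP-2 alpha subunits, rose from 75.9, 68.0, 67.7 and 75.6 CPM to 90.7, 95.5, 90.6 and 95.4 CPM. That was a log2 fold change of 0.38 ± 0.0888 (edgeR, Benjamini-Hochberg adjusted p = 0.0165). Arf3, an ARF GTPase of the Golgi, fell from 130.9, 159.0, 137.8 and 131.4 CPM to 97.7, 104.9, 112.1 and 106.5 CPM, at -0.40 ± 0.0905 (adjusted p = 0.0128 by edgeR). Dab2, an adaptor that brings LDL receptor family members to AP-2, fell from 23.7 ± 4.78 to 13.5 ± 3.03 CPM, at -0.79 ± 0.181 (adjusted p = 0.0143 by edgeR). The groups of these 3 genes did not overlap. The part of the lower blood, meningeal and choroid plexus markers in these 3 changes was not tested.

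The calls of Aagab and Dab2 were lost without some libraries, while their log2 fold changes stayed at 0.34 to 0.41 and -0.94 to -0.67. Without WT replicate 3 the adjusted p by edgeR was 0.0675 for Aagab and 0.0636 for Dab2, and without deleted replicate 1 or 2 it was 0.0506 or 0.0504 for Dab2. Arf3 kept its call without each library, with adjusted p of at most 0.0470.

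The remaining lists held no called gene in the PWS-IC deletion in the fit of its own 8 libraries by group alone. Clathrin light chain Clta and heavy chain Cltc had log2 fold changes of 0.06 ± 0.0807 and 0.13 ± 0.0857. Of genes for vesicle fission and uncoating, Sh3gl1, an endophilin, and Dnajc6, the neuronal uncoating factor auxilin, had the smallest p, at -0.43 ± 0.143 and -0.27 ± 0.0938. Hip1, an adaptor that links clathrin to actin, was at -0.44 ± 0.134 (edgeR, Benjamini-Hochberg adjusted p = 0.0649). Other settings called some of these by edgeR: Hip1 without a filter, with the replicate number or sex added and in 1 fit of 16 libraries (adjusted p from 0.00976 to 0.0335), and also without deleted replicate 1 (0.0373). Sh3gl1 was called without a filter (0.0492), with the replicate number (0.0384) and with sex (0.0266), and Dnajc6 with sex (0.0488). Of cargo receptors, Furin, a protease that AP-1 sorts, was at 0.38 ± 0.126 and Lrp1, an endocytic receptor, at 0.25 ± 0.0956. The list medians ranged from -0.15 for vesicle fission and uncoating to 0.23 for the pair of tested genes among other AP-1 subunits, beside -0.0140 for all genes.

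**Figure D5:**
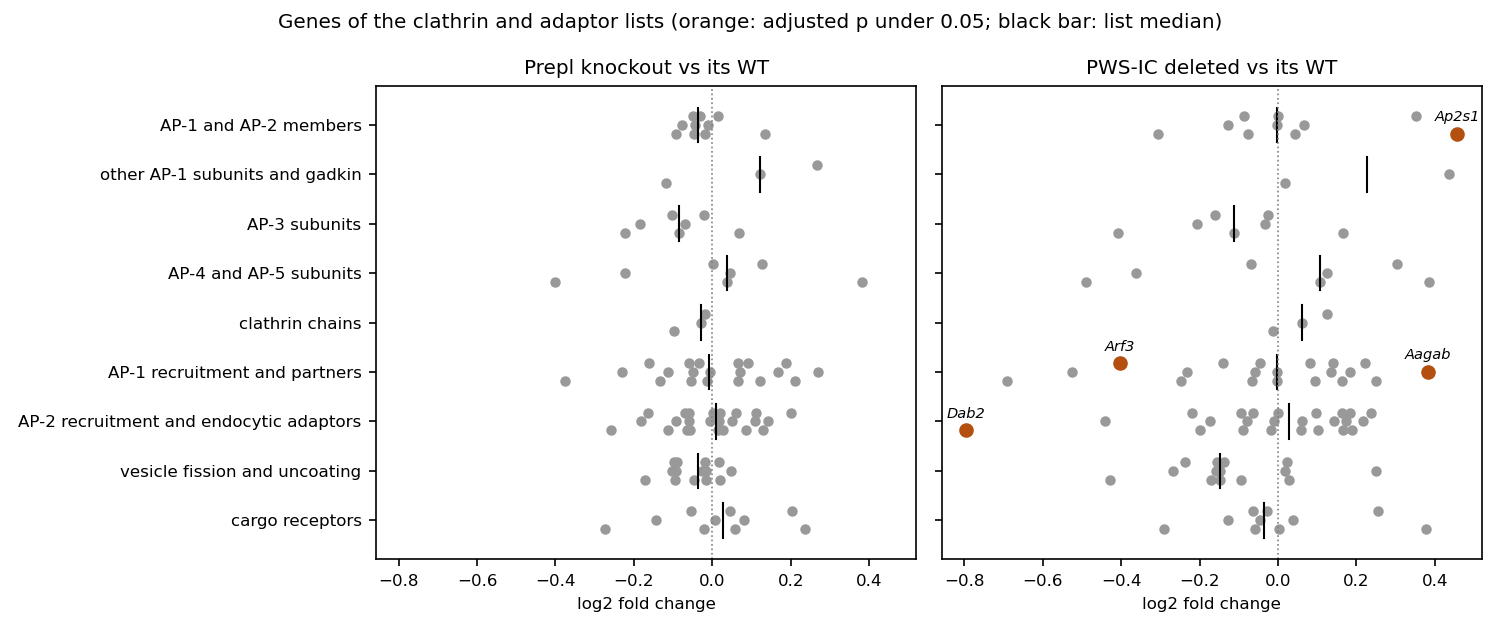
Log2 fold change (horizontal axis) of each tested gene of the adaptor and clathrin lists in the Prepl knockout (left) and the PWS-IC deletion (right), with black bars at list medians. Called genes, in orange, are Ap2s1, Aagab, Arf3 and Dab2, all in the PWS-IC deletion.

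Ap1m1 averaged 94.5 ± 5.33 CPM in the Prepl WT group, 86.4 ± 2.94 CPM in the Prepl knockout, 76.6 ± 6.68 CPM in the PWS-IC WT group and 61.8 ± 7.46 CPM in the PWS-IC deletion. Across the 16 libraries, the genes whose log2 CPM followed it most closely among 9483 genes were St8sia2, a polysialyltransferase, Aplp1, an amyloid precursor-like protein, and Hspbp1, a regulator of HSP70. Their Pearson r was 0.952, 0.938 and 0.935, as a description. With the group means removed r was 0.760, 0.719 and 0.526, lower for each of the 3 genes.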

How the data were processed

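RNA was measured in 16 mouse brain libraries made with Lexogen QuantSeq, which captures poly(A) tails and reads transcript 3′ ends, per the labels' protocols. The deposited values are counts of reads per gene symbol. HISAT2, HTSeq and mm10 are named in the submitters' processing notes. Versions, gene annotation and use of strand: not given in the sources used here. The 5 totals that name no gene were left out of library sizes and tests: between 38.1% and 46.4% of tabled reads lay in genes, 11.4% to 20.1% outside genes, and 25.2% to 30.9% did not align uniquely. Replicates differed by more than sampling noise (chi-square per degree of freedom of at least 2.43 for each pair within a group).

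From these counts CPM was computed here per library. edgeR 4.0.16 (R 4.3.3) used filterByExpr (minimum count 10, minimum total 15), TMM, quasi-likelihood F-tests, and Benjamini-Hochberg adjusted p-values across the whole table with a threshold of 0.05. Each mutant was fitted with its own WT group. The difference of the mutant effects and the WT groups were contrasts in a fit of 16 libraries. A standard error is the size of the log2 fold change over the root of its F statistic. Alternatives used other filters and factors, DESeq2 1.42.0, limma 3.58.1 voom, sex or replicate number as a term, a fit of 16 libraries, and leaving out each library. The fit was tested on simulated data. Gene positions are those of GENCODE M21 (GRCm38). Transcript ends were compared with blastn 2.17.0.

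Named are the 10 members, the genotype checks, pathway genes called in either mutant, the 2 smallest p of each list in each mutant, and the 3 genes most like Ap1m1 with a mean of at least 10 CPM. The members and lists were chosen with earlier results of these data known.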

Additional observations from a re-analysis of the deposited data

Results flagged for a closer look

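The Ap2s1 difference of mutant from own WT libraries was unlike between the models, by -0.51 on the log2 scale (edgeR, Benjamini-Hochberg adjusted p = 0.0131). It was higher in the PWS-IC comparison, where the deletion and the share of reads outside genes cannot be told apart. In 3 of 76 groups of 4 libraries 1 library stood apart from the other 3 by Dixon's criterion, where chance flags about 1 in 20. Prepl knockout replicate 1 held 97.6 CPM of Ap1b1 while the others held 79.8 to 80.0 CPM. The same library held 109.7 CPM of Ap2a2 while the others held 98.3 to 99.0 CPM. WT replicate 3 of the Prepl comparison held 102.4 CPM of Ap1m1 while the others held 91.0 to 92.5 CPM.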

How the results depend on the processing

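Ap2s1 was called in the PWS-IC deletion in all 9 other settings, at 0.44 to 0.46, and its difference between the models held in all settings, at -0.52 to -0.48. Members called in the PWS-IC deletion numbered 2 with sex as a term and in 1 fit of 16 libraries, and between the WT groups 1 without the filter and 0 to 3 without single libraries. Genes called in the Prepl knockout were 36, and 156 without a filter, 6 with sex as a term, 18 in 1 fit and 12 to 103 without single libraries. In the PWS-IC deletion they were 616, and 945 without a filter, 1119 with sex, 999 in 1 fit and 362 to 653 without single libraries. For the difference they were 112, and 222 without a filter, 170 by DESeq2, 235 with sex and 67 to 134 without single libraries. Counts moved by over 1.5 times without Prepl WT replicate 1, 2 or 3 or knockout replicate 1, 2 or 4, without PWS-IC WT replicate 3 or deleted replicate 1, and, for the difference, without Prepl WT replicate 2 or 3 or knockout replicate 3. The replicate block, added because groups share numbers, gave 989 genes in the PWS-IC deletion and 1 member. Called pathway genes in the PWS-IC deletion were 3, and 5 without a filter, 6 with the replicate block and 8 with sex. Same-numbered libraries correlated at 0.0624 to 0.365 in the PWS-IC comparison and -0.101 to 0.0504 in the Prepl comparison. In the PWS-IC comparison 3 of 4 pairs were over 0.1, and same-numbered libraries also share sex. Pairs of the same sex with different numbers correlated at 0.174 to 0.472 there, and pairs of unlike sex at -0.455 to -0.107. WT replicate 2 correlated best with deleted replicate 1 (0.472), and the pairing was not established. The cause of these shifts was not tested.

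Directions turned only for estimates that were not called. These were, without a filter, Ap1b1 (-0.020) and Ap1ar (-0.0027) in the PWS-IC deletion and Ap1b1 (0.012) and Ap1s1 (0.023) for the difference. With sex they were Ap1ar (0.044) in the Prepl knockout, Ap1b1 (-1.74e-05) in the PWS-IC deletion, and Ap1b1 (0.00594), Ap1g1 (0.0012) and Ap1s2 (-0.092) for the difference. Others were Ap1b1 (-0.00135) with a CPM filter and Ap2m1 (0.0035) with voom in the PWS-IC deletion. Without single libraries the PWS-IC ranges crossing 0 were -0.13 to 0.19 (Ap1ar), -0.066 to 0.061 (Ap1b1), -0.049 to 0.13 (Ap1g1), -0.015 to 0.15 (Ap2a2) and -0.064 to 0.063 (Ap2m1). In the Prepl knockout they were -0.19 to 0.037 (Ap1ar), -0.083 to 0.061 (Ap1b1), -0.11 to 0.026 (Ap1s2), -0.16 to 0.54 (Ap1s3), -0.015 to 0.045 (Ap2m1) and -0.067 to 1.44e-05 (Clta). For the difference they were -0.088 to 0.058 (Ap1b1), -0.039 to 0.017 (Ap1s1), -0.022 to 0.13 (Ap1s2) and -0.052 to 0.073 (Ap2m1), and between the WT groups -0.030 to 0.092 (Ap2m1).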

Other observations

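Subunits of the other adaptor complexes gave no call in either mutant when its own 8 libraries were fitted by group alone. Of 7 AP-3 subunits tested, which serve transport to lysosome-related organelles, 0 were called in the Prepl knockout, with Ap3b1 at -0.22 ± 0.102 and Ap3m2 at -0.19 ± 0.0816 on the log2 scale. In the PWS-IC deletion Ap3m1 was at -0.41 ± 0.128 (edgeR, Benjamini-Hochberg adjusted p = 0.0754) and Ap3d1 at 0.17 ± 0.0838. Other edgeR settings called Ap3m1: sex as a term (adjusted p = 0.0317), 1 fit of 16 libraries (0.0217) and the replicate number (0.05 after rounding). Of 7 AP-4 and AP-5 subunits tested 0 were called in either mutant. Ap5m1, the medium chain of AP-5, was at -0.40 ± 0.191 in the Prepl knockout and -0.49 ± 0.222 in the PWS-IC deletion, and Ap5z1 was at 0.38 ± 0.226 in the Prepl knockout.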
